A study of Anser anser with 2 samples.

Results

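The miR-29 family was followed in small RNA of goose liver, in 1 library of normal liver and 1 library of fatty liver. Its members were all reads whose deposited name was miR-29 with any letter, arm or star, whatever the species of the name. These were 83 of 17203 distinct read sequences (tags) in the control library and 77 of 18072 in the overfed library, or 3200 of 9178938 and 1916 of 9737540 listed miRNA reads. Landes is a goose breed used to produce fatty liver, and the study divided 60 males aged 90 days between its groups. The control group had free access to a basal diet holding 2873 kcal and 171 g of protein per kg. The overfed group was given a carbohydrate-rich feed over 21 days, with 3353 kcal, 76 g of protein and 15 g of fat per kg. How many birds were pooled per library is not stated in the labels. Since each diet was read in 1 library, no test between the diets can be made, and the intervals given throughout describe the counting of reads, not the spread between birds.

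miR-29 is best known as a brake on extracellular matrix. In mammals its members bind the transcripts of fibrillar collagens, elastin and fibrillin, and in rodent and human hepatic stellate cells, the collagen-producing cells of the liver, miR-29 is lowered by transforming growth factor beta. Mammalian miR-29 also binds transcripts of DNA methyltransferases and is studied in the insulin response of hepatocytes. In mammals the members are made from a pair of clusters, one with miR-29a and miR-29b and one with miR-29b and miR-29c, and the 3′ arm (3p) of the hairpin gives the main product.

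The members share their seed, the bases 2 to 8 that pair with the target, and differ further along. The reference sequences of the deposited names are shown with the seed in capitals, because they set what the letters a, b and c can mean in these reads.
mouse miR-29c-3p: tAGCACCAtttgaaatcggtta
human miR-29a-3p: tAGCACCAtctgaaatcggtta
human miR-29b-3p: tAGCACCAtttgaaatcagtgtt
chicken miR-29a: tAGCACCAtttgaaatcggtt
chicken miR-29c: tAGCACCAtttgaaatcggt
pig miR-29b: tAGCACCAtttgaaatcagt
Counted from the 5′ end and read from mouse miR-29c-3p, human miR-29a-3p differed by T10C, and human miR-29b-3p by G18A, T21G and A22T. Chicken miR-29a and chicken miR-29c carried no difference from mouse miR-29c-3p over their 21 and 20 bases, and ended 1 and 2 bases earlier.

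Nearly every read named miR-29a therefore had the sequence of miR-29c. The tag of the chicken miR-29a reference held 146 of the 154 control reads (94.8%) and 98 of the 112 overfed reads (87.5%) of miR-29a-3p. Of all family reads, 86.8% of the control library (exact Clopper-Pearson 95% interval 85.6% to 88.0%) and 83.0% of the overfed library (81.2% to 84.6%) fitted miR-29a and miR-29c alike. The base that sets mammalian miR-29a apart, T10C, was read in 1 control read and 2 overfed reads. Tags with any single substitution before the last base of the 22-nt sequence numbered 19 in the control library, with 1 to 15 reads each, and 9 in the overfed library, with 1 to 8 reads each, and the T10C tag lay within those ranges. The letters a and c could thus not be told apart in these reads, and the family is described below by name and also in classes set by base 18, where G18A separates miR-29b from the rest.

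By name, miR-29c-3p was the main member in each library and was lower in the overfed one. It had 2686 control reads and 1525 overfed reads, or 293 and 157 reads per 1000000 listed miRNA reads (RPM). Its ratio of overfed over control was -0.90 on the log2 scale (exact conditional binomial 95% interval -0.99 to -0.81), so its level in the control library was 1.87 times that in the overfed library (1.75 to 1.99 times). miR-29b-3p, which differs from it only in its 3′ part, stood at 346 and 272 reads, or 37.7 and 27.9 RPM, with a log2 ratio of -0.43 (-0.67 to -0.20). miR-29a-3p, whose reads are those of a shortened miR-29c, stood at 154 and 112 reads, or 16.8 and 11.5 RPM, with a log2 ratio of -0.54 (-0.91 to -0.18). The order of the levels by name, c above b above a, was the same in each library, and no neighbours in that order had overlapping counting intervals. Since most reads named a differ from those named c only in where they end, this does not rank a against c. The family total was 349 RPM in the control and 197 RPM in the overfed library, which is a log2 ratio of -0.83 (-0.91 to -0.74). It made up a small part of a liver profile led by miR-122-5p, the hepatocyte miRNA, which had 726545 and 743626 RPM.

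**Figure D1:**
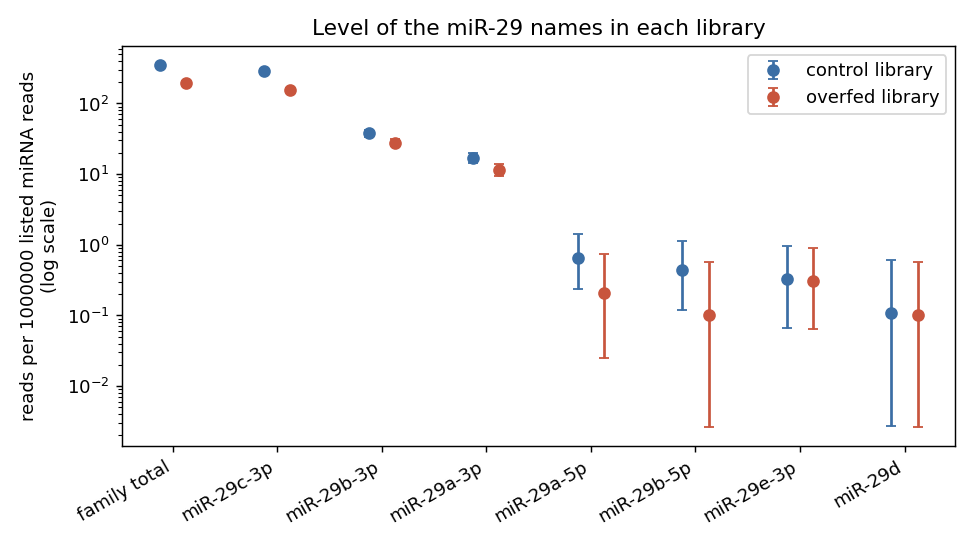
Level of each miR-29 name in the control and the overfed library, in reads per 1000000 listed miRNA reads on a log axis, with exact Clopper-Pearson 95% intervals for counting error. The family total and the 3p names with the letters a, b and c stand above 10 RPM and lower in the overfed library, while each of the other 4 names holds at most 6 reads.

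The remaining names held few reads. The 5′ arm (5p), the minor product of the hairpin, had 10 control reads and 3 overfed reads over miR-29a-5p and miR-29b-5p, or 1.09 and 0.308 RPM. The overfed value equals the level that 3 counts give in that library, and the log2 ratio of -1.82 had an interval of -4.32 to 0.14, so a difference was not detectable at this depth. The 3p arm held 99.7% of control reads (99.4% to 99.8%) and 99.8% of overfed reads (99.5% to 99.9%), and these intervals overlap. All 3 control and all 3 overfed reads named miR-29e, a bovine name, carried the base of miR-29b at position 18, and miR-29d had 1 read in each library. The reference of miR-29e differs within the seed from those shown above.

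Given by their own bases, the classes differed in their ratio. The miR-29a and miR-29c class, with the reference base at position 18, had 2835 control reads and 1628 overfed reads, or 309 and 167 RPM. Its log2 ratio was -0.89 (-0.97 to -0.80). The miR-29b class, with G18A, had 343 and 274 reads, or 37.4 and 28.1 RPM, and its log2 ratio was -0.41 (-0.64 to -0.18). The share of the miR-29b class in the family was 10.7% in the control library (9.67% to 11.8%) and 14.3% in the overfed library (12.8% to 15.9%). These intervals do not overlap, so the miR-29b share of the family reads rose by more than counting error between the libraries. Reads of 20 nt or fewer made up 4.15% of listed control reads and 5.29% of listed overfed reads. Scaled to all listed reads, reads of that length gave a log2 ratio of -0.49 (-0.88 to -0.11) in the miR-29a and miR-29c class. The miR-29b class had -0.47 (-0.74 to -0.21). At 21 bases or more, scaled instead to listed reads of that length, the classes had -0.89 (-0.98 to -0.80) and -0.14 (-0.67 to 0.39). The ratios of short and long reads were thus scaled unlike, and only the classes within a length range can be compared. The RNA was cut from the gel at 20 to 30 nt, and 81.3% of control and 77.7% of overfed miR-29b class reads had 20 nt or fewer. The part of read length, or of the gel cut, in the higher share was not tested. With tags of at least 21 bases, which few miR-29b reads reach, the share of miR-29b-3p by name was 2.37% (1.84% to 3.01%) and 3.63% (2.77% to 4.67%), and the intervals overlapped.

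The classes also ended at different places. The most common miR-29b tag was the pig reference shown above, 3 bases shorter than human miR-29b-3p, with 250 of 343 control reads (72.9%, 67.9% to 77.5%) and 199 of 274 overfed reads (72.6%, 66.9% to 77.8%). Full-length miR-29b-3p had 4 and 2 reads. The last bases of human miR-29b, AGTGTT, hold the signal that brings it into the nucleus in human cells. They were present in 8 control reads (2.33% of the class, 1.01% to 4.54%) and 4 overfed reads (1.46%, 0.399% to 3.70%). The form 1 base shorter than the pig reference had 26 control reads and 9 overfed reads, 7.58% (5.01% to 10.9%) and 3.28% (1.51% to 6.14%) of the class. Reads of 20 nt or fewer were 81.3% and 77.7% of the miR-29b class, against 4.73% and 6.20% of the miR-29a and miR-29c class and 4.15% and 5.29% of all listed miRNA reads. miR-29b reads were thus mostly short in each library. The form 1 base shorter had a log2 ratio of -1.62 (-2.89 to -0.48), and its interval overlaps that of the class.

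**Figure D2:**
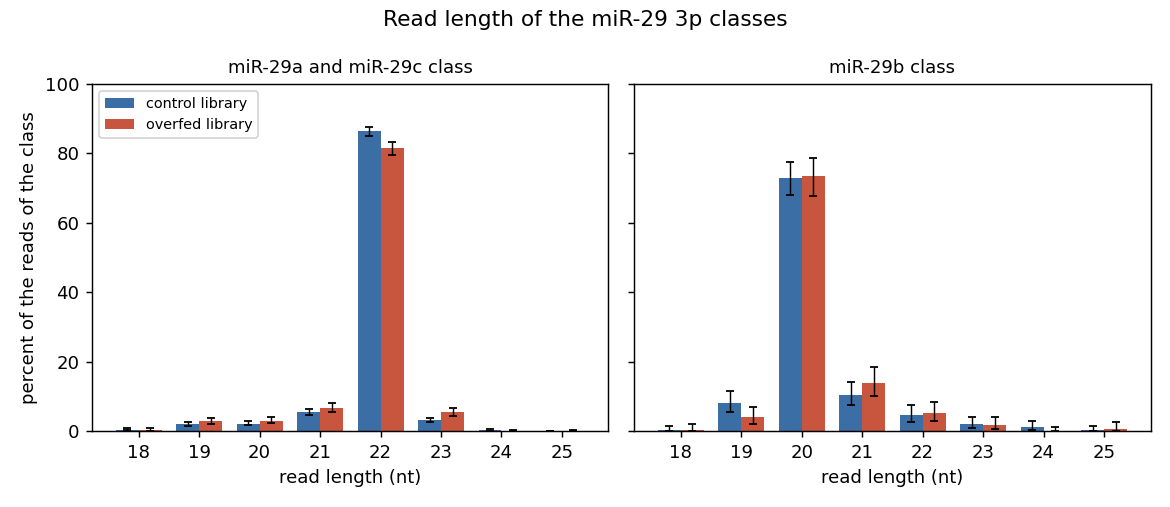
Read length in nt of the miR-29a and miR-29c class and of the miR-29b class, as percent of the reads of the class in each library, with exact Clopper-Pearson 95% intervals as error bars. The miR-29a and miR-29c class peaks at 22 nt with 86.3% of control and 81.4% of overfed reads, and the miR-29b class peaks at 20 nt with 72.9% and 73.4%.

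Nearly all reads carried the seed at its usual place. Of the reads of the 3p arm, with those of miR-29d, whose arm was not placed, 3151 of 3190 in the control library (98.8%, 98.3% to 99.1%) and 1870 of 1913 in the overfed library (97.8%, 97.0% to 98.4%) carried it at bases 2 to 8. Reads that began 1 base earlier, which shifts the seed, numbered 8 and 16, and reads that began 1 base later 8 and 9. Outside the family the same bases stood at that place in 1 overfed read, named miR-2066, and in 0 control reads. Reads with a mismatch to their deposited reference were 5.63% and 5.38% of the family, and 5.35% and 4.42% of all listed reads.

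The family was then set against all miRNAs with a mean of at least 10 RPM, of which there were 140 after names were summed over species, with the arms kept apart. miR-29a-3p, miR-29b-3p and miR-29c-3p passed that minimum, and the 4 other miR-29 names did not. All 3 members had an interval wholly below 0, as did 32.9% of the 140. Of the 3 members, 1 was at least 1.5 times lower, miR-29c-3p, against a background of 9.29%, and 0 were at least 2 times lower, against 1.43%. Ordered from the lowest ratio, miR-29c-3p stood at place 5 of 140, miR-29a-3p at 15 and miR-29b-3p at 22. Since nearly all reads named miR-29a-3p also fit miR-29c-3p, these names are not separate evidence. By level miR-29c-3p, miR-29a-3p and miR-29b-3p stood at places 43, 125 and 85. The median log2 ratio of the 140 was 0.09, and miR-29c-3p lay 0.99 below it (log2 difference -0.99), miR-29a-3p at -0.64 and miR-29b-3p at -0.52 from it. Scaling moves all ratios by 1 constant, -0.24 with edgeR's TMM factors, which puts the median of the 140 at -0.14. Under these factors miR-29c-3p was at -1.14 (-1.23 to -1.05) and so more than 2 times lower, and 7 of 139 miRNAs were at least 2 times lower. With DESeq2's median-of-ratios factors miR-29c-3p was at -0.99, and without miR-122-5p in the totals at -0.81.

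**Figure D3:**
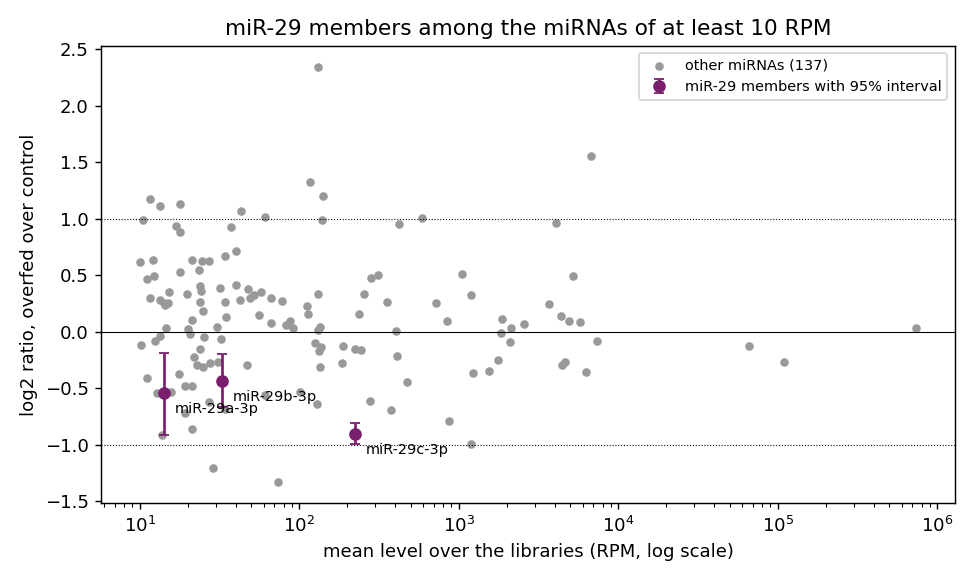
The log2 ratio of overfed over control against the mean level in RPM (log axis) for the 140 miRNAs with a mean of at least 10 RPM, with the miR-29 members and their exact 95% intervals in purple and dotted lines at 2 times in either direction. miR-29c-3p, at -0.90, lies near the lower edge of the cloud and miR-29a-3p and miR-29b-3p lie below 0 among other miRNAs.

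Among the 45 other miRNAs with a mean level within 4 times of miR-29c-3p, the 5 with the nearest log2 ratio were miR-30a-5p, miR-148a-3p, miR-125b-5p, miR-100-5p and miR-145-5p. The likeness was the distance between log2 ratios over these 2 libraries. miR-30a-5p, at 1098 and 635 RPM, was nearest, with a log2 ratio of -0.79 (-0.84 to -0.75) and a distance of 0.11. miR-148a-3p, a hepatocyte miRNA, followed at 465 and 287 RPM and -0.69, and miR-145-5p, known from smooth muscle and mesenchymal cells, was the last of the 5 at -0.56. The interval of miR-30a-5p overlaps that of miR-29c-3p, and the intervals of the other 4 do not.

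Other miRNAs studied in fibrosis or matrix regulation went in either direction. Of 23 such names, 22 were listed and 17 passed the minimum, of which 11 had an interval wholly below 0 and 6 wholly above it, against 32.9% and 45.0% of the 140. Their median log2 ratio was -0.26, against 0.09 over all 140. miR-222-3p, the most abundant, was at least 2 times higher, with 3429 RPM in normal and 10100 RPM in fatty liver (log2 ratio 1.56), a size that 7.14% of the 140 reached upwards. None of the 17 was at least 2 times lower, where 1.43% of the 140 were. At least 1.5 times lower were 4 of the 17, against 9.29% of the 140. The list includes miR-30a-5p, miR-148a-3p and miR-145-5p, already named above as near miR-29c-3p in ratio. The next most abundant were miR-101a-3p at 5077 and 4232 RPM (-0.26), miR-199-3p, a mesenchymal miRNA, at 4909 and 3995 RPM (-0.30), and miR-21-5p, induced in many injured tissues, at 4143 and 4572 RPM (0.14). The shift of -0.24 with TMM factors puts the ratio of miR-21-5p below 0, so its direction depends on the scaling.

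Liver holds several cell types, and in such libraries fewer cells of a type and less RNA per cell cannot be told apart. The 5 stellate or mesenchymal miRNAs summed to 7031 RPM in the control and 5800 RPM in the overfed library. Nearly all of that sum was miR-199-3p and miR-143-3p. Of the 5, 4 were wholly lower and 1, miR-199a-5p, was wholly higher (log2 ratio 0.15, 0.03 to 0.28). All 5 are also on the fibrosis list and were counted there, so the lists are not separate observations. Over the 140, 32.9% were wholly lower and 45.0% wholly higher. The hepatocyte list held only the arms of miR-122, which summed to 726782 and 743955 RPM, with 2 of 2 wholly higher. miR-148a-3p, another hepatocyte miRNA but not on that list, was wholly lower (log2 ratio -0.69, -0.76 to -0.62). All directions in this paragraph are per listed reads, and other scaling shifts every ratio by a constant. The shift of -0.24 with TMM factors puts the log2 ratios of miR-122-5p (0.03) and miR-199a-5p below 0. That of miR-122-3p (0.47) stays above 0. The shift of -0.09 with median-of-ratios factors also puts miR-122-5p below 0. The 4 leukocyte miRNAs summed to 123 and 133 RPM, with 1 wholly higher and 1 wholly lower among the 3 past the minimum. The 2 red cell miRNAs summed to 346 and 300.5 RPM, with 2 of 2 wholly lower, and the 2 endothelial ones to 87.0 and 95.5 RPM, with 1 in each direction. The muscle list summed to 819 and 876 RPM, nearly all of it miR-1a-3p, the pancreas list to 67.1 and 168 RPM, nearly all of it miR-375, with miR-216a listed in neither library, and the neuron list to 0.763 and 1.85 RPM. The part of these cell types in the lower miR-29 level was not tested.

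The forms of the miR-29a and miR-29c class did not all move alike. The full-length form, shown above as mouse miR-29c-3p, had 2295 control reads and 1241 overfed reads, or 250.0 and 127 RPM, with a log2 ratio of -0.97 (-1.07 to -0.87). Its share of the class was 81.0% in the control library (79.5% to 82.4%), and in the overfed one 76.2% (74.1% to 78.3%). The forms 1 base longer, whose read counts were near equal in the libraries, are printed with the seed in capitals, and beside them a form of full length with another last base, whose counts were not.
miR-29c-3p with T added: tAGCACCAtttgaaatcggttat
miR-29c-3p with A added: tAGCACCAtttgaaatcggttaa
miR-29c-3p with T in place of the last base: tAGCACCAtttgaaatcggttt
The form with T added had 46 control reads and 47 overfed reads, a log2 ratio of -0.05 (-0.67 to 0.56). The form with A added had 33 and 36 reads, a log2 ratio of 0.04 (-0.68 to 0.77). Together these forms stood at 8.61 and 8.52 RPM, which gives a log2 ratio of -0.01 (-0.48 to 0.45), an interval that does not overlap that of the full-length form. The form with T in place of the last base, by contrast, had 116 and 64 reads and a log2 ratio of -0.94 (-1.41 to -0.49), close to that of the full-length form. Its sequence is also that of chicken miR-29a with T added, and these origins cannot be told apart in the reads. Forms shortened at the 3′ end by 1 to 4 bases summed to 270 and 191 reads, a log2 ratio of -0.58 (-0.86 to -0.31). That interval also does not overlap that of the full-length form, -1.07 to -0.87, though the ends lie close together. The intervals of the share of these shortened forms in the class, 9.52% (8.47% to 10.7%) and 11.7% (10.2% to 13.4%), overlapped. Whether the added bases are encoded in the goose hairpin was not tested.

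**Figure D4:**
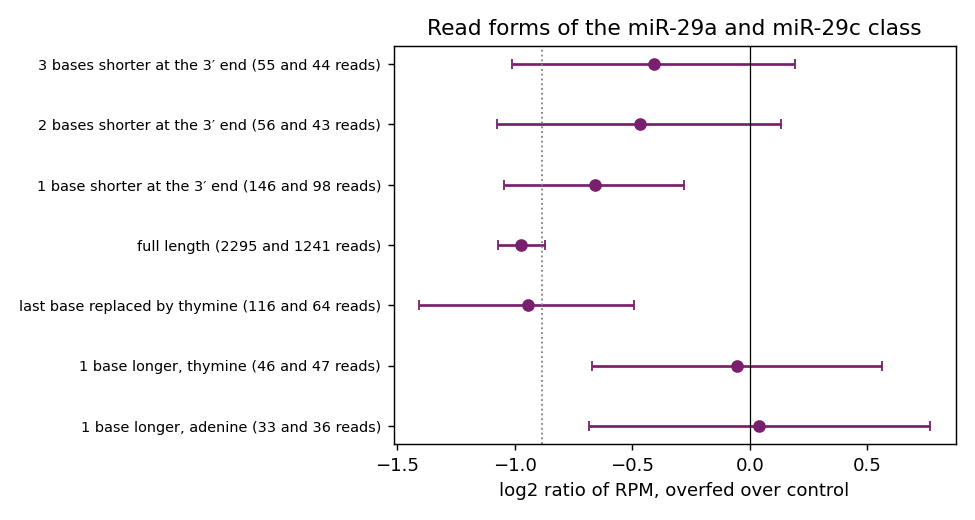
The log2 ratio of overfed over control for the 7 most common read forms of the miR-29a and miR-29c class, with exact conditional 95% intervals, the read counts of the control and overfed library beside each form, and a dotted line at the log2 ratio of the whole class, -0.89. The full-length form lies at -0.97, while the forms 1 base longer lie at -0.05 and 0.04, on either side of 0.

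The longer forms were then compared with those of other miRNAs, a comparison chosen after these values had been seen. Of the reads named miR-29c-3p, 2.94% in the control library (2.34% to 3.65%) and 5.44% in the overfed library (4.36% to 6.70%) were the most common tag with 1 A or T added. Of the 52 miRNAs that reached 1000 reads in both libraries, this share was higher in the overfed library with intervals that do not overlap for 1.92%, which is miR-29c-3p itself, and lower for 44.2%. Without regard to the intervals the share was higher for 11 and lower for 37 of the 52. The added T alone, at 1.71% (1.26% to 2.28%) and 3.08% (2.27% to 4.08%), and the added A alone, at 1.23% (0.847% to 1.72%) and 2.36% (1.66% to 3.25%), had intervals that overlapped. Over the 52, the share with T added was lower beyond its interval for 48.1% and higher for none, and the share with A added was lower for 13.5% and higher for 3.85%. The most common tag itself took a smaller share of miR-29c-3p reads in the overfed library, 81.4% (79.3% to 83.3%) against 85.4% (84.1% to 86.8%), as it did beyond its interval for 17.3% of the 52, while 40.4% went the other way. The share for miR-29c-3p rests on 79 control reads and 83 overfed reads.

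**Figure D5:**
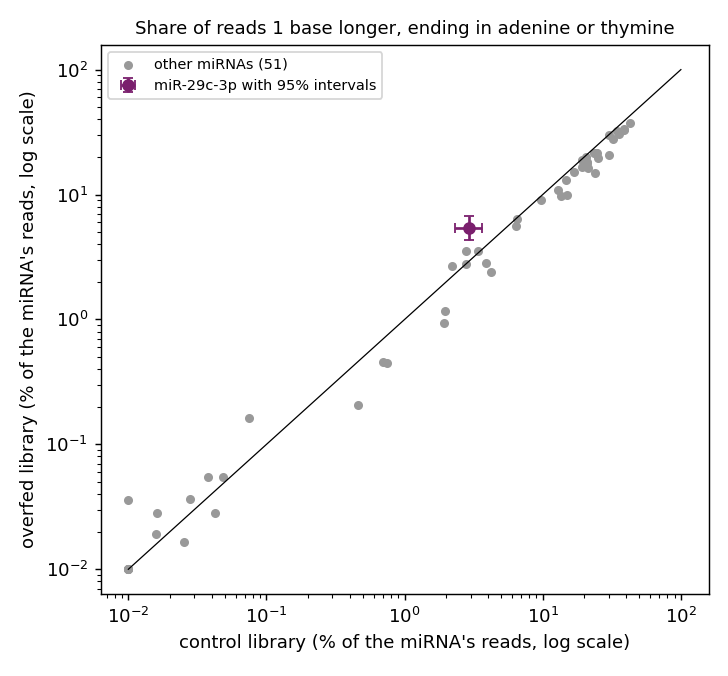
Share of a miRNA's reads that are its most common tag with 1 adenine or thymine added, control library against overfed library, in percent on log axes, for the 52 miRNAs that reached 1000 reads in both libraries. The line marks equal shares, shares below 0.01% (5 miRNAs) are drawn at 0.01%, and miR-29c-3p lies above the line at 2.94% and 5.44% with its exact 95% intervals.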

How the data were processed

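Per the labels' protocols, Illumina libraries were made from gel-cut RNA of 20 to 30 nt, starting from 10 μg of Trizol-extracted liver RNA. The authors deposited raw read counts for each tag, with its best matching reference miRNA of any species. The deposited alignment score was not used. The labels name no aligner, database or release. Only tags with a miRNA match are listed, so the totals are not whole library depths. At these totals 1 read was 0.109 RPM in the control and 0.103 RPM in the overfed library. The limit that a count of 0 allows, set at 3 counts, was 0.327 RPM and 0.308 RPM.

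Tags were summed over species by name and arm. A name without an arm was put on the arm of a marked name of the same letter whose most common tag shared at least 16 bases in a row. Where there was none, other letters of the same number were used, a step added after the files were seen and needed for miR-29a, and a star name went to the opposite arm. Letterless names were merged into a lettered one whose reference shared at least 18 bases and all but 2 of the shorter, which gave 1155 miRNAs. To be called lower or higher, a miRNA needed a mean level of 10 RPM or more, a ratio of 1.5 or 2 times or more, and an interval without 1. No molecular identifiers were used, so PCR copies count as reads, and the intervals and limits cover only the error of counting. The named miRNAs are the miR-29 names, the 5 nearest in ratio, the 4 most abundant of the fibrosis list with any past 2 times, and other names with the seed. The classes by base 18, the forms, and the levels of miR-122-5p and of single cell type markers are described beside that rule. The members and lists were chosen with earlier results of these data known. Scripts were tested on simulated data. Python 3.11.15, numpy 2.4.6, pandas 2.3.3, scipy 1.17.1, matplotlib 3.10.9, R 4.3.3, edgeR 4.0.16 and DESeq2 1.42.0 were used, the last pair for scaling factors only.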

Additional observations from a re-analysis of the deposited data

How the results depend on the processing

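No paired analysis was possible because there was only 1 library per diet, and no replicate could be left out. The log2 ratios of the family total, miR-29b-3p and miR-29c-3p were below 0 under every alternative run. With TMM factors they were -1.06, -0.67 and -1.14, with median-of-ratios factors -0.92 for the family and -0.99 for miR-29c-3p, and without miR-122-5p in the totals -0.73 and -0.81, shifts that scaling makes by construction. With only tags that fit 1 member, miR-29c-3p was at -0.81 on few reads and miR-29a-3p turned to 1.05 (-0.59 to 2.93), since nearly all its reads also fit miR-29c. With tags of at least 21 bases, which leave out most miR-29b reads, the miR-29b class was at -0.14 (-0.67 to 0.39) and miR-29b-3p by name at -0.25 (-0.79 to 0.28), and the share of miR-29b-3p fell from 10.8% and 14.2% to 2.37% and 3.63%. The 3p arm held 99.9% of control reads without mismatched tags, and 97.3% and 98.8% with tags that fit 1 member. Without mismatched tags or gaps, full-length reads were 91.4% (90.2% to 92.5%) and 89.3% (87.5% to 90.9%) of the miR-29a and miR-29c class, since other forms drop out. These intervals overlapped, unlike those with all tags. Of the 140 miRNAs, 13 were at least 1.5 times lower and 2 at least 2 times lower. The number of miRNAs compared changed with the setting. Without a minimum the counts were 23 and 8 of 1155, and with a minimum of 100 RPM 6 and 0 of 60. With TMM factors they were 26 and 7 of 139, and with names not joined 21 and 2 of 185. With median-of-ratios factors they were 18 and 4 of 140, and without miR-122-5p 14 and 4 of 194. The class values with other tag sets were added after the data were seen.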
